A study of Mus musculus with 6 samples.

Results

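Tetraspanins and the L6 family of TM4SF proteins, small membrane proteins that cross the membrane 4 times, were compared between tumour-propagating cells (TPCs) and non-TPCs of mouse small cell lung cancer. The members were chosen by gene name, and 29 of the 31 named genes were measured, out of 18193 genes on the arrays. They were covered by 61 of the 45101 probe sets, and each gene was represented by its brightest probe set. Tspan7 and Cd63 were not analysed here. The tumours came from animals of mixed C57BL/6;129Sv/J background with a triple knockout of Rb, p53 and p130, were induced by adenovirus carrying Cre, and were taken 6 to 7 months later without treatment. All samples share this genotype. Each of mice 1127, 920 and 0107 gave 1 sample sorted with TPC markers and 1 sorted with non-TPC markers after staining for CD24, CD44 and EpCAM, so there were 3 arrays per fraction. The gates, the number of tumours pooled per animal and the cell type in which the virus drove Cre are unstated in the labels.

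Tetraspanins carry a short and a long extracellular loop, the long one with a conserved cysteine motif, and they gather integrins, proteases and immunoglobulin-type receptors into membrane microdomains. The L6 proteins share the 4-pass layout but belong to a separate family. In the lung and its tumours these proteins are known from epithelial, endothelial and blood cells, where they act in adhesion, migration and the release of vesicles. Signals are given as log2 RMA values, so a difference of 1 is a doubling, and every difference is TPC minus non-TPC.

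On average, the fractions carried markers of their labelled tumour type. The mean signal of 12 neuroendocrine tumour genes lay between 9.36 and 9.83 in the TPC arrays and between 9.30 and 9.68 in the non-TPC arrays. Single genes of this list varied, and Neurod1 was at 9.70 in the non-TPC array of mouse 0107 and between 3.88 and 5.11 in all other arrays. Marker lists of other cell types had lower medians in TPCs, at -1.20 for 10 alveolar type 2 genes, -0.93 for 10 alveolar type 1 genes, -1.27 for 10 club cell genes, -1.97 for 13 fibroblast genes, -0.55 for 12 endothelial genes, -1.04 for 11 leukocyte genes and -0.84 for 7 mesothelial genes. The median over all genes was 0.04. In sorted bulk samples, fewer cells of a type and less RNA per cell cannot be told apart.

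Among the 29 members 1 gene, Tm4sf1, fell in TPCs past an adjusted p of 0.05 (limma, Benjamini-Hochberg over all genes), and 0 rose. Over all genes 0.0605% were called lower and 0% were called higher. At an unadjusted p under 0.05 there were 3 members on the lower side, Tm4sf1, Tspan4 and Cd151, beside 4.35% of all genes, and 1 on the higher side, Tspan15, beside 2.12%. The 28 members that did not pass had differences from -0.92 to 0.54 and adjusted p from 0.261 to 0.979. Of the 29 members 20 had a mean signal above 6.91, the median of all genes. Each of these p-values rests on how much the 3 mice varied within a fraction. In limma that spread is drawn toward the spread typical of all genes. In the fit with a replicate block for the mouse, given further below, the spread is that of the within-mouse differences.

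The family as a whole had no common direction. The mean difference was below 0 in 11 members and above 0 in 18, beside 41.9% and 58.1% of all genes, and the member median was 0.08. By mouse the member median was 0.11, 0.05 and -0.01 in mice 1127, 920 and 0107. Tm4sf1, Tspan4, Tspan9, Tspan11, Tspan14 and Cd151 were lower in TPCs of all 3 mice, 6 members beside 13.8% of all genes. Tspan2, Tspan5, Tspan10, Tspan12 and Tspan15 were higher in TPCs of all 3 mice, 5 members beside 19.7% of all genes. Every TPC signal was below every non-TPC signal in 3 members, Tm4sf1, Tspan4 and Tspan9, beside 5.91% of all genes. The reverse held for 2 members, Tspan10 and Tspan15, beside 6.71%. A mean difference of at least 1 in size was seen in 1 member, Tm4sf1, beside 2.96% of all genes.

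**Figure D1:**
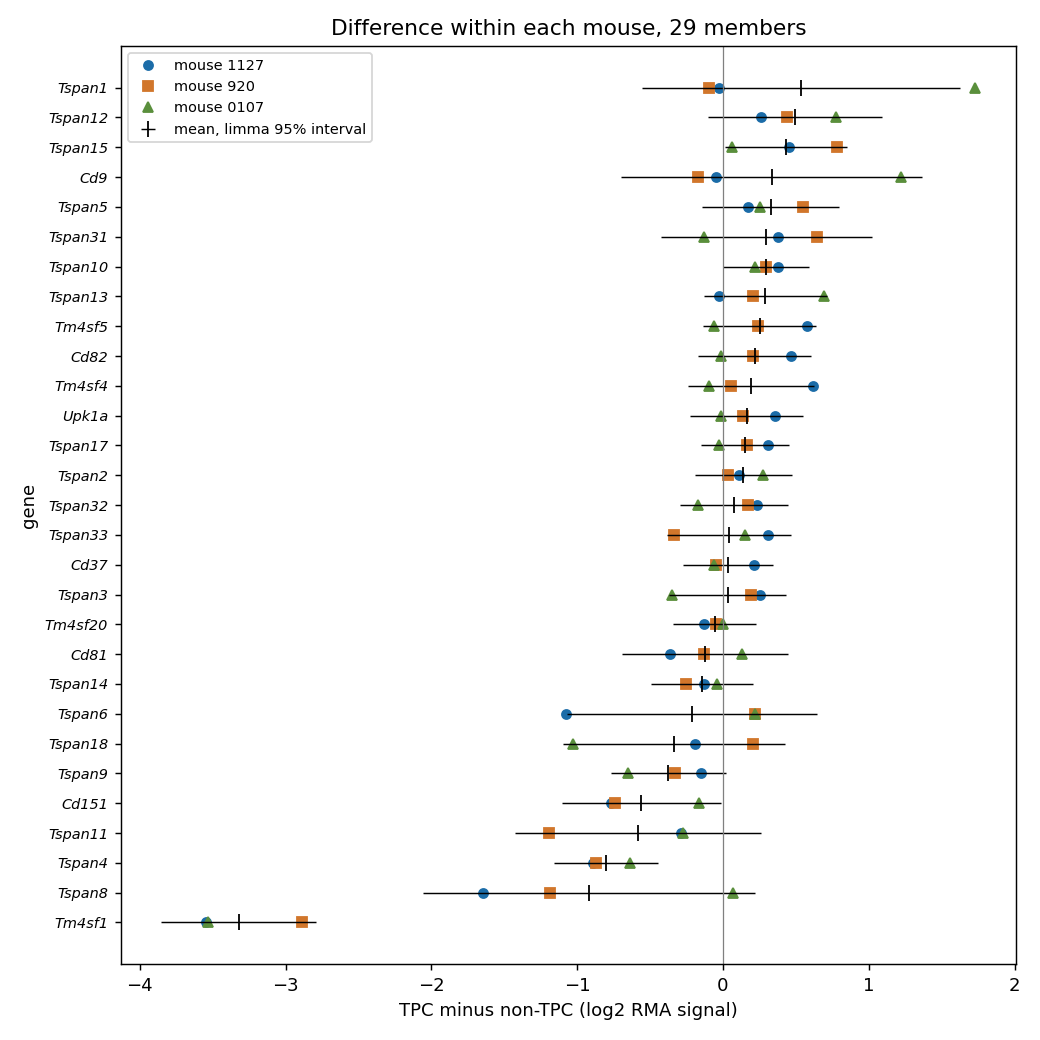
TPC minus non-TPC difference (log2 RMA signal, x axis) of the 29 measured members (y axis) within each mouse, with the limma mean and 95% interval in black. Tm4sf1 lies at -3.32 and stands apart from the other members, which lie between -0.92 and 0.54.

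Tm4sf1, the founding L6 antigen, is a surface protein abundant in endothelium and in many carcinomas and takes part in cell protrusion and migration. Its signal in TPCs was 5.42, 5.65 and 4.98 in mice 1127, 920 and 0107. In non-TPCs of the same mice it was 8.96, 8.53 and 8.51. Every TPC array was below every non-TPC array by a wide margin, and the non-TPC levels of the 3 mice were close to each other. The means were 5.35 ± 0.34 and 8.67 ± 0.26 (SD, n = 3). Tm4sf1 fell by 3.32 on the log2 scale, a 9.99-fold difference (SE 0.22, 95% interval -3.85 to -2.79, limma adjusted p = 0.0172). Within mice the difference was -3.55, -2.88 and -3.53, and in the fit with a replicate block for the mouse the adjusted p was 0.0285. That fit called 0.0715% of all genes, and Tm4sf1 was the 1 member among them.

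The size of the Tm4sf1 difference depended on the probe set. A second, dimmer probe set had means of 4.25 in TPCs and 5.31 in non-TPCs and differed by -1.08, -0.27 and -1.84 in mice 1127, 920 and 0107. The third was near the floor of the arrays in both fractions, with means of 3.72 and 3.75. With the second brightest probe set in place of the brightest, the limma adjusted p of Tm4sf1 was 0.745, and with the mean of all its probe sets the difference was -1.47 with an adjusted p of 0.0619. The call was also lost without both arrays of mouse 1127 (limma adjusted p = 0.589), 920 (0.0899) or 0107 (0.0766), or without the TPC array of mouse 1127 (0.159), 920 (0.0559) or 0107 (0.0591). Leaving out the non-TPC array of mouse 1127 gave 0.0694. The difference stayed between -3.54 and -3.14 in those fits, which hold fewer arrays.

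Markers of other lung cells were lower in the same arrays as Tm4sf1. Mean marker signals in the non-TPC arrays of mice 1127, 920 and 0107 were 8.99, 7.00 and 6.55 for fibroblasts and 6.37, 5.83 and 6.88 for endothelium. In the TPC arrays they ranged from 5.71 to 5.80 for fibroblasts and from 5.75 to 5.78 for endothelium. For alveolar type 1 cells they ranged from 6.83 to 7.07 in TPCs and from 7.75 to 8.29 in non-TPCs. In the fibroblast and endothelial lists 1 of 13 and 3 of 12 genes had a mean signal below the first quartile of the arrays, in the alveolar type 1 list 0 of 10. The part of any of these cell types in the Tm4sf1 difference was not tested.

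**Figure D2:**
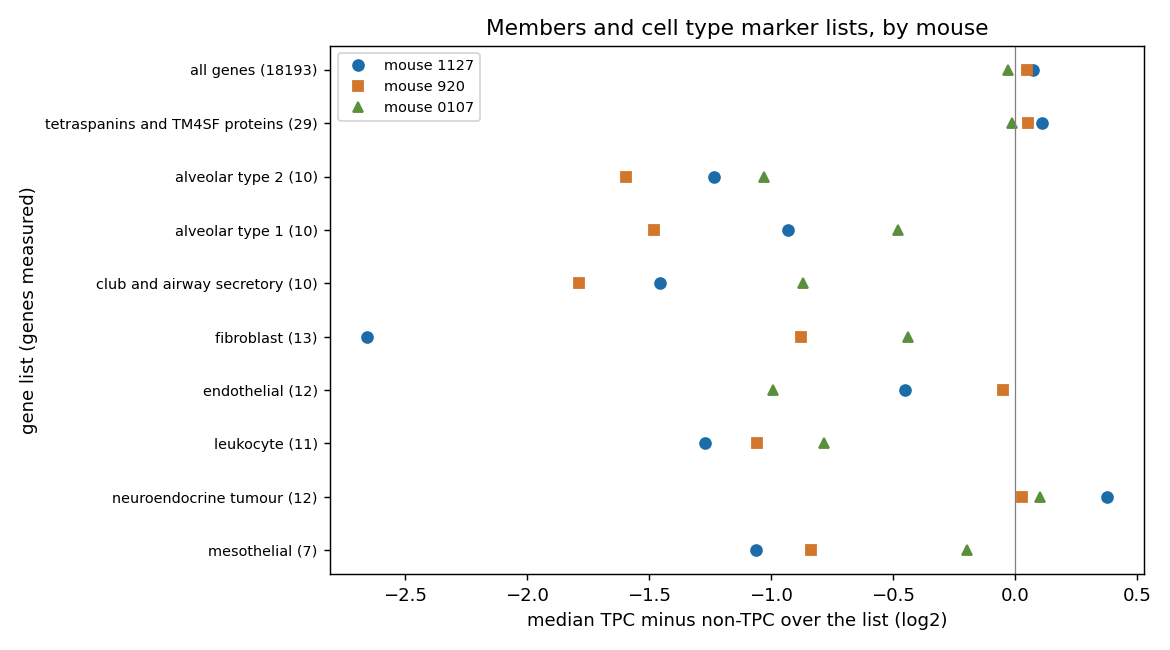
Median TPC minus non-TPC difference (log2, x axis) of the members, of all genes and of the cell type marker lists (y axis, genes measured in brackets), with 1 point per mouse. The members and all genes lie near 0 in every mouse. The lung, stromal and leukocyte lists lie below 0, although the endothelial list is also near 0 in mouse 920, at -0.05.

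None of the other 3 L6 members passed the test. Tm4sf4, a regulator of growth in liver, gut and pancreas and the chromosomal neighbour of Tm4sf1, had means of 6.43 ± 0.18 (TPC) and 6.23 ± 0.26 (non-TPC) (difference 0.19, 95% interval -0.24 to 0.62, limma adjusted p = 0.904). Tm4sf5, linked to epithelial-mesenchymal transition in liver, differed by 0.25 (adjusted p = 0.877), and it was lower in TPCs of mouse 0107 alone, by -0.06. Tm4sf20 lay between 3.82 and 3.95 in all 6 arrays, below the first quartile of each array (4.52 to 4.65). No difference was detectable at such signals.

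The starts of Tm4sf1, its neighbour Tm4sf4, which was not called, and Tspan4 are shown to set side by side the called member, the adjacent gene of its family, and the member with the next smallest p. The windows hold the 250 bases before the RefSeq start on GRCm38.p6, written 5′ to 3′ on the strand of the gene, with CpG dinucleotides in capitals. They lie at chr3:57301989-57302238 (minus strand), chr3:57425160-57425409 (plus strand) and chr7:141474986-141475235 (plus strand, the first of the starts listed for Tspan4).
Tm4sf1: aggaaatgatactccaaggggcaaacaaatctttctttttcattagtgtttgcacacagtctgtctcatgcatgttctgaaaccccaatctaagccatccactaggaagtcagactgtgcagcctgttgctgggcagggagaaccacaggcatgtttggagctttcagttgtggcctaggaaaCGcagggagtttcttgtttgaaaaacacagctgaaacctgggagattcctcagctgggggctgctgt
Tm4sf4: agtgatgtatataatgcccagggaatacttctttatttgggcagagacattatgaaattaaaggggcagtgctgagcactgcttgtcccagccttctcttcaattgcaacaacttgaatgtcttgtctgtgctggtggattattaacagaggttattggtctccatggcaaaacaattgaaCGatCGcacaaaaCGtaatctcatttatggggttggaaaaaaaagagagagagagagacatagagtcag
Tspan4: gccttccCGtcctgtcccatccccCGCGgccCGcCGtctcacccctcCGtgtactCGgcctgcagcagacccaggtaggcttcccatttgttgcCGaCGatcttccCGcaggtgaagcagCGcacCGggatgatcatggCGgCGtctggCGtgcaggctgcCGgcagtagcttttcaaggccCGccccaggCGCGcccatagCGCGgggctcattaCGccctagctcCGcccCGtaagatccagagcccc
The Tm4sf1 window held 1 CpG and 48.0% G and C, and the Tm4sf4 window 3 CpGs and 40.8%. The Tspan4 window held 24 CpGs and 68.0% G and C. Of 32851 windows of the same length in the table, 18.8% had at most 1 CpG, 12% had at least 24, and the median was 6. The letters GGAATG (the core of TEAD binding), TGANTCA (AP-1), TATAAA (the TATA box) and GGGCGG (the GC box) were searched on both strands, and occur in 12.6%, 6.75%, 12.4% and 32.7% of those windows. None of them was found in the windows of Tm4sf1 and Tm4sf4, and Tspan4 held GGGCGG at 2 places, beginning 69 and 24 bases before the start. The CpG capitals overlap with GGGCGG, which contains a CpG.

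Windows were found for 27 of the 29 members, 37 windows in all because some genes have several starts. GGGCGG was present in those of 13 members, GGAATG in those of 2 (Cd82 and Tspan9), TGANTCA in that of Tspan15 and TATAAA in that of Tspan12. These matches are letters in a window and not measured sites.

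The tetraspanins known by CD numbers lay above the median signal apart from Cd37. Of the 5 measured, 0 passed in limma with or without the replicate block, and 1, Cd151, had an unadjusted p under 0.05. Cd151, which binds laminin-binding integrins and stabilises their adhesion, was at 10.44, 10.27 and 11.08 in TPCs of mice 1127, 920 and 0107. In non-TPCs it was at 11.21, 11.01 and 11.25. The TPC array of mouse 0107 was above the non-TPC array of mouse 920, so the fractions overlapped, although each mouse was lower in TPCs. Cd151 differed by -0.56 (SE 0.23, 95% interval -1.11 to -0.01, limma adjusted p = 0.76, unadjusted p = 0.0464). The difference was -0.77, -0.74 and -0.17 within the 3 mice. The 4 brightest of its 6 probe sets differed by -0.58 to -0.48, while the 2 dimmest differed by 0.27 and 0.09.

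Cd9, which takes part in cell motility and in the fusion of sperm and egg, was at 12.80, 12.91 and 12.61 in TPCs of mice 1127, 920 and 0107. In non-TPCs it was at 12.84, 13.09 and 11.39. Only the non-TPC array of mouse 0107 was low, and the other 5 lay within the range from 12.61 to 13.09. The mean difference of 0.33 (SE 0.43, 95% interval -0.70 to 1.37, limma adjusted p = 0.927) came from differences of -0.05, -0.17 and 1.22, and without both arrays of mouse 0107 it was -0.11.

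Cd81, a widely expressed tetraspanin that hepatitis C virus uses to enter liver cells, was at 11.12, 10.93 and 10.75 in TPCs and at 11.48, 11.06 and 10.62 in non-TPCs of mice 1127, 920 and 0107. The fractions overlapped, with a larger step between mice than between fractions. It differed by -0.12 (SE 0.24, 95% interval -0.69 to 0.45, limma adjusted p = 0.947), and by 0.09 when the non-TPC array of mouse 1127 was left out. Cd82, a suppressor of metastasis, was at 7.13, 7.04 and 7.15 in TPCs and at 6.67, 6.84 and 7.17 in non-TPCs of the same mice. It differed by 0.22 (SE 0.16, 95% interval -0.17 to 0.61, limma adjusted p = 0.89), with the non-TPC array of mouse 0107 above all TPC arrays.

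Cd37, a tetraspanin of B cells and other leukocytes, was at 6.05, 5.84 and 5.96 in TPCs and at 5.84, 5.88 and 6.02 in non-TPCs of mice 1127, 920 and 0107. It differed by 0.04 (SE 0.13, 95% interval -0.27 to 0.35, limma adjusted p = 0.971). The leukocyte list, by contrast, had a median difference of -1.04, with mean signals of 6.48 to 7.08 in TPCs and 7.16 to 7.99 in non-TPCs. Cd53, another leukocyte tetraspanin that is outside the fixed members, differed by -1.59 (adjusted p = 0.63), by -2.65, -1.34 and -0.78 in the 3 mice. Tspan32, a tetraspanin of blood cells, differed by 0.08 (adjusted p = 0.948).

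**Figure D3:**
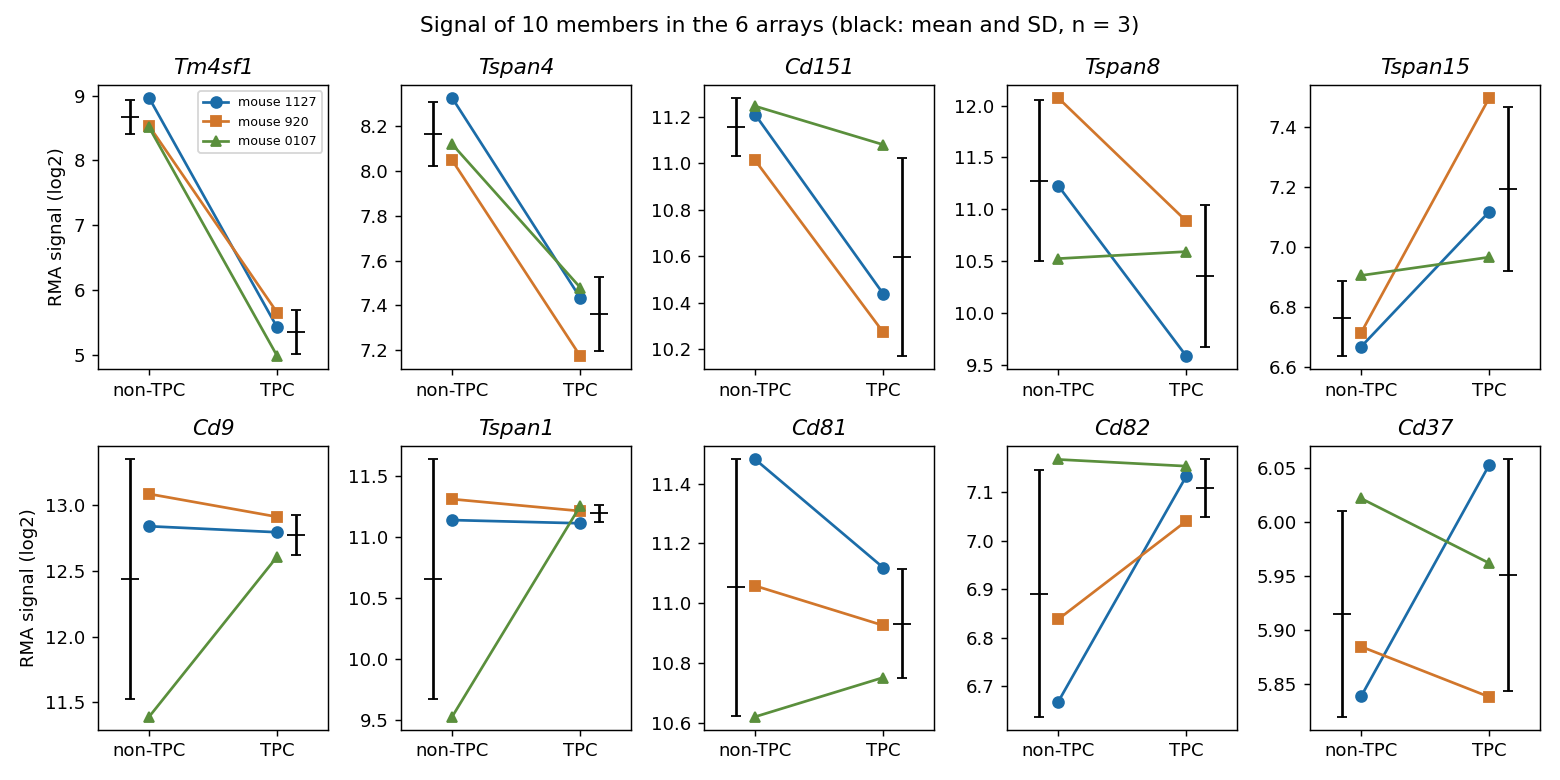
RMA signal (log2, y axis; each panel has its own scale) of 10 members in non-TPCs and TPCs (x axis), with 1 line per mouse and the mean and SD of each fraction in black (n = 3). The lines of Tm4sf1 and Tspan4 run downward in every mouse, while those of Cd9 and Tspan1 separate only at the non-TPC array of mouse 0107.

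The TspanC8 tetraspanins, named for the cysteines of their long loop, carry the protease ADAM10 out of the endoplasmic reticulum and steer which substrates it cuts. Of the 6 genes 0 passed in limma with or without the replicate block, 1 had an unadjusted p under 0.05 without it, 5 had a mean difference above 0 and the median was 0.22. Tspan15, which directs ADAM10 to cadherins, was at 7.12, 7.50 and 6.97 in TPCs of mice 1127, 920 and 0107. In non-TPCs it was at 6.67, 6.71 and 6.90. All TPC arrays were above all non-TPC arrays, by a narrow margin in mouse 0107, where the difference was 0.06. It differed by 0.43 (SE 0.18, 95% interval 0.01 to 0.85, limma adjusted p = 0.756, unadjusted p = 0.0456). With the replicate block the unadjusted p in limma was 0.0611 and the 95% interval, -0.03 to 0.89, included 0.

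Tspan5 differed by 0.33, and by 0.17, 0.55 and 0.25 in mice 1127, 920 and 0107 (limma adjusted p = 0.873). Tspan10 differed by 0.30 with dim signals, 4.98 to 5.07 in TPCs and 4.64 to 4.85 in non-TPCs (adjusted p = 0.769). Tspan14 differed by -0.14, Tspan17 by 0.15 and Tspan33, a marker of activated B cells and erythroid progenitors, by 0.04, with adjusted p from 0.901 to 0.974. The protease itself, Adam10, had means of 10.85 ± 0.33 (TPC) and 10.90 ± 0.46 (non-TPC) (difference -0.05, adjusted p = 0.979), and was named outside the rule after its value was seen. Of the 10 genes listed as ADAM10, its relative or their substrates, 1 was called, Cd44, a sorting marker that decreased by 2.90 (adjusted p = 0.0172) and whose protein was used for the sort. Notch2, a receptor cut by ADAM10, differed by -0.84 (limma adjusted p = 0.773, and 0.158 with the replicate block). It was lower in TPCs of every mouse, by -0.78, -0.78 and -0.96 in mice 1127, 920 and 0107. With the block its limma unadjusted p was 0.0012.

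Of the 14 remaining members 0 passed in limma with or without the replicate block, and 1, Tspan4, had an unadjusted p under 0.05 without it. With the block the limma unadjusted p was also under 0.05 for Tspan8 (0.0424), Tspan11 (0.0495) and Tspan12 (0.0242). The share of all genes reaching this with the block was not counted. Tspan4, which is needed for migrasomes, the vesicles left behind by migrating cells, had the smallest p after Tm4sf1. Its signal was 7.43, 7.17 and 7.48 in TPCs of mice 1127, 920 and 0107. In non-TPCs it was 8.33, 8.05 and 8.12. All TPC arrays were below all non-TPC arrays and the within-mouse differences of -0.89, -0.87 and -0.64 were alike. Tspan4 differed by -0.80, a 1.74-fold change in signal (SE 0.15, 95% interval -1.16 to -0.44, limma adjusted p = 0.261, unadjusted p = 0.00124). Its adjusted p was 0.179 with the replicate block and 0.0986 when the mouse was a random block.

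Tspan8, a tetraspanin of epithelia and of tumour vesicles, differed most between mice among the bright members on the lower side. It was at 9.59, 10.89 and 10.59 in TPCs and at 11.23, 12.08 and 10.53 in non-TPCs of mice 1127, 920 and 0107. The fractions overlapped, and in mouse 0107 they were level, with a difference of 0.07 against -1.64 and -1.19 in the others. Tspan8 differed by -0.92 (SE 0.48, limma adjusted p = 0.843, and 0.483 with the replicate block). All 5 of its probe sets had a mean difference below 0, from -1.30 to -0.38. Unlike the brightest, the third brightest was lower in TPCs of every mouse, by -1.85, -1.27 and -0.79 in mice 1127, 920 and 0107. The fractions did not overlap at that probe set. Markers of club cells were lowest among the non-TPC arrays in mouse 0107, with mean signals of 10.79, 11.55 and 9.78 in mice 1127, 920 and 0107 beside 9.30, 9.80 and 8.99 in TPCs, and their part in the Tspan8 pattern was not tested.

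Tspan1, an epithelial tetraspanin, resembled Cd9 across the arrays. It was at 11.11, 11.21 and 11.25 in TPCs of mice 1127, 920 and 0107, and at 11.14, 11.31 and 9.52 in non-TPCs. As with Cd9, the non-TPC array of mouse 0107 alone was low, and the differences within mice were -0.03, -0.10 and 1.73. The mean was 0.54 (SE 0.46, limma adjusted p = 0.901), and -0.06 without both arrays of that mouse. Epcam and Cldn7, epithelial adhesion genes that bind tetraspanins at the membrane and were chosen here after seeing their values, were also lowest in that array. Epcam was at 9.98 there against 12.91 and 12.95 in the other non-TPC arrays, and Cldn7 at 8.50 against 10.90 in both. EpCAM was also one of the proteins stained for the sort. The TPC array of mouse 0107 was low in Epcam too, at 11.57, but not in Tspan1. Their part in the Tspan1 and Cd9 values was not tested.

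Tspan12, a coreceptor for Norrin signalling through Frizzled-4, had differences of 0.26, 0.44 and 0.77 in mice 1127, 920 and 0107 (mean 0.49, limma adjusted p = 0.833, and 0.406 with the replicate block). Its receptor Fzd4 differed by -0.73 (adjusted p = 0.829) and the coreceptor Lrp5 by 0.28 (adjusted p = 0.81). Tspan13 differed by 0.29, Tspan31, named for its amplification in sarcoma, by 0.30 and Tspan2, a tetraspanin of oligodendrocytes, by 0.14. Tspan3 differed by 0.03, with a 95% interval of -0.37 to 0.43. Upk1a, a plaque protein of the bladder lining, had signals of 5.07 to 5.21 in TPCs and 4.72 to 5.22 in non-TPCs. The fractions of these 6 genes overlapped.

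In Tspan11, Tspan18 and Tspan6 a single array stood apart from the other 5. Tspan11 was at 6.89 in the non-TPC array of mouse 920 and between 5.35 and 5.69 in the other 5 arrays. Tspan18, which supports calcium entry in endothelial cells, was at 6.58 in the non-TPC array of mouse 0107 and between 5.33 and 5.60 elsewhere. That array also had the highest endothelial mean signal, 6.88, and the part of endothelial RNA was not tested. Tspan6 was at 6.83 in the TPC array of mouse 1127 and between 7.76 and 8.23 elsewhere. Tspan9, a tetraspanin of platelets, was more even, at 7.42, 7.19 and 7.31 in TPCs and 7.57, 7.51 and 7.96 in non-TPCs of mice 1127, 920 and 0107. It differed by -0.38 (SE 0.17, limma adjusted p = 0.788).

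**Figure D4:**
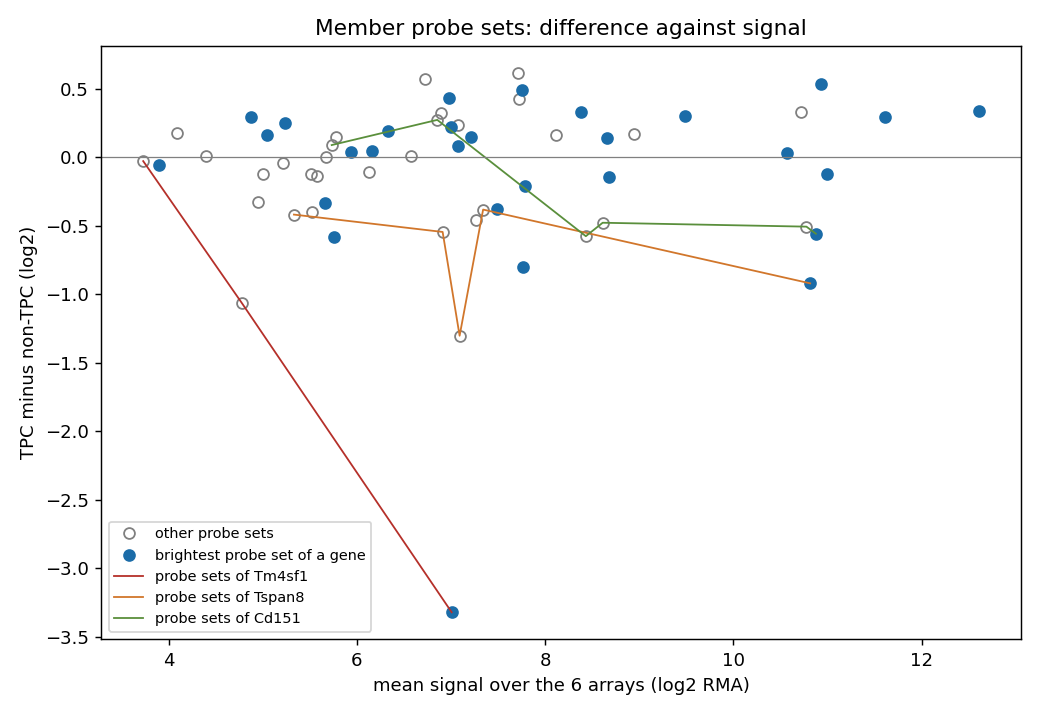
TPC minus non-TPC difference (log2, y axis) of the 61 member probe sets against their mean signal over the 6 arrays (log2 RMA, x axis), with filled points for the brightest probe set of each gene and lines joining the probe sets of 3 genes. The 3 probe sets of Tm4sf1 run from -3.32 at the brightest to -0.03 at the dimmest, while the 4 brightest of Cd151 stay between -0.58 and -0.48.

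Apart from Cd44, no listed partner gene was called in limma, with or without the replicate block. Without the block, an unadjusted p under 0.05 was reached by 0 integrin genes, 0 immunoglobulin-type partners, 1 other partner and 1 vesicle gene. With the block it was also reached in these lists by Icam1 (limma unadjusted p = 0.0045) and Fzd4 (0.041), lower in TPCs. Hbegf (0.012), Tgfa (0.037) and Epcam (0.037), higher in TPCs, reached it with the block too. The share of all genes reaching it with the block was not counted, so these genes cannot be set against a background rate. Of 8 integrin genes 0 passed, with a median of 0.01. Itga4, a chain of fibronectin and VCAM-1 receptors, differed by -0.65, and the laminin receptor chains Itga7, Itga6 and Itga3 differed by -0.38, 0.34 and 0.18 (limma adjusted p of these 4 genes from 0.878 to 0.912). Of 5 immunoglobulin-type partners 0 passed, with differences of -1.14 in the adhesion receptor Icam1 (limma adjusted p = 0.815), -0.20 in the adhesion receptor Vcam1, -0.17 in Ptgfrn and 0.20 in Igsf8. Of 11 other partners 0 passed, with the peptidase Dpp4 at -1.75 (adjusted p = 0.358). Of 11 vesicle genes 0 passed, and the syndecan Sdc1 differed by -1.15 (adjusted p = 0.62), lower in 3 of 3 mice. Cd53 had the largest difference of the 4 measured family members outside the fixed list, and Upk1b, Rom1 and Prph2 differed by -0.14, 0.08 and -0.01.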

How the data were processed

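RNA was measured on 1-colour Affymetrix arrays labelled with the WT Plus kit, per the labels' protocols. That kit is for whole transcripts, while the probe annotation belongs to an array type that reads transcript ends. This mismatch was not resolved here. The authors deposited 1 log2 signal per probe set and array, computed with RMA per the submitters' processing notes. The RMA version is unstated in the labels, and log2 was taken as the scale because values ran from 2.70 to 14.81 with array medians of 6.00 to 6.04. An array has no depth, and the number of arrays limits the precision.

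Of 45101 probe sets, 34945 had 1 gene symbol, 932 several, 9160 none listed and 64 were controls. Symbols of 18032 genes were updated through Entrez identifiers to RefSeq (GRCm38.p6), and 161 kept the array's symbol. Groups come from the titles. All genes were fitted in limma 3.58.1 (R 4.3.3, two-sided, fraction as the only term, no intensity filter). The fit was tested on simulated data with independent arrays and no mouse effect, so that test cannot judge the pairing. Both fractions of a mouse come from 1 animal, and their deviations from the fraction means correlated at 0.30, 0.46 and 0.36 in mice 1127, 920 and 0107, against at most -0.08 between mice. A fit with a replicate block (2 residual degrees of freedom against 4) was therefore added. Deviations in a fraction cancel out over its mice, so the between-mouse correlations are no independent contrast to the same-mouse ones.

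The members and lists were chosen with earlier results of these data known. A member is given in all arrays if past the threshold in either fit, if its unadjusted p without the block was under 0.05, if it differed by at least 1 in the same direction in all mice, or if known by a CD number. Tspan1, Tspan8 and Tspan9 were added after seeing their values. Genes named from other lists were among the 4 of smallest p in their list, apart from Epcam, Cldn7, Adam10, Hbegf and Tgfa. Alternatives covered the pairing, probe sets, dim genes, scaling, variance model and single arrays. Protein sequences were not used here.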

Additional observations from a re-analysis of the deposited data

How the results depend on the processing

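With 3 arrays per fraction, calls were sensitive to single arrays. Tm4sf1 was lower in TPCs under all 16 alternatives and past the threshold in 7 of them: the replicate block, the random block, genes above the median level, median centring, trend and robust eBayes, and the fits that left out the non-TPC array of mouse 920 or 0107. Tm4sf1 was kept among genes above the median level, 6.91, only through its non-TPC mean of 8.67, as its TPC mean was 5.35. The fit on those genes is therefore no separate support for the difference. Tm4sf1 differed by -1.47 with the mean of all probe sets and by -1.06 with the second brightest, and by -3.54 to -3.14 when arrays were left out, so the count of called members was 0 under both probe set alternatives and 0 to 1 with arrays left out. The count over all genes, 11, was 13 with the replicate block, 39 with the random block, 4 with the mean of all probe sets, 2 with the second brightest, and 0 (without mouse 1127) to 84 (without the non-TPC array of mouse 0107). No member rose under any alternative, and the replicate block changed no call of a member. The member median ranged from 0.00 (0.0005, without mouse 1127) to 0.13 (0.1252) with arrays left out. Differences of uncalled members changed sign in 24 cases, 23 of them with arrays left out. The ranges there were -0.0195 to 0.34 for Tm4sf4, -0.0621 to 0.86 for Tspan1, -0.0803 to 0.22 for Tspan3, -0.49 to 0.22 for Tspan6, -0.61 to 0.037 for Tspan18, -0.0088 to 0.21 for Tspan32, -0.10 to 0.23 for Tspan33, -0.19 to 0.66 for Cd9, -0.053 to 0.092 for Cd37 and -0.34 to 0.0929 for Cd81. Tspan33 differed by -0.0302 with the mean of all probe sets. The cause of these changes was not tested, beyond the smaller number of arrays.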

Other observations

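In the order of protein-coding genes in RefSeq, several members are neighbours, which was looked at after the values were seen. Tm4sf1 is followed on chromosome 3 by Tm4sf4 and then Wwtr1, which encodes TAZ, a relative of YAP. Wwtr1 had mean signals of 5.80 (TPC) and 8.27 (non-TPC) and differed by -3.75, -2.15 and -1.50 in mice 1127, 920 and 0107 (mean -2.47, SE 0.69, limma adjusted p = 0.553, and 0.187 with the replicate block). Tm4sf4, between them, differed by 0.62, 0.05 and -0.09. Cd151 and Tspan4 lie on chromosome 7 with 1 gene between them, which was not analysed here, and both were lower in TPCs of 3 of 3 mice. On their outer sides Cracr2b, a regulator of calcium entry, differed by 0.26 and Chid1 by -0.22. Tspan11 and Tspan9, adjacent on chromosome 6, were also both lower in TPCs of 3 of 3 mice at their brightest probe sets. Their mean differences were -0.58 and -0.38. At their second brightest probe sets both were higher in TPCs of mouse 1127, by 0.21 and 0.17. The dimmest probe set of Tspan11 was higher in TPCs of every mouse, by 0.23, 0.07 and 0.23. Over all genes 13.8% were lower in TPCs of all 3 mice. Prmt8, on the outer side of Tspan11, was lower by -0.56, -0.70 and -0.51 in mice 1127, 920 and 0107 (mean -0.59, limma adjusted p = 0.411). Tead4, on the outer side of Tspan9, differed by 0.07. Tspan18 and Cd82, adjacent on chromosome 2, differed by -0.34 and 0.22, and Tspan32 and Cd81, adjacent on chromosome 7, by 0.08 and -0.12.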
